A study of Homo sapiens with 4 samples.

Results

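The genes described here belong to the machinery that sorts membrane vesicles to the apical or the basolateral surface of an epithelial cell. They are 10 genes chosen by name: the syntaxins STX3 and STX4, the vesicle SNARE VAMP8, the Rab GTPases RAB11A, RAB25 and RAB8A, the motor MYO5B, the clathrin adaptor subunit AP1M2, the exocyst subunit EXOC4 and the annexin ANXA13. All probe sets annotated to these symbols alone were taken, 20 in number, and none was shared with another symbol. All 10 genes were among the 12264 genes counted as expressed, and 18 of their 20 probe sets passed the filter on low signal by their mean over the 4 arrays.

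In a polarised epithelium, newly made and recycled membrane proteins leave the Golgi and endosomes in carriers that fuse with one surface or the other. Rab GTPases mark the carriers, myosin Vb moves them along apical actin, the exocyst tethers them, and syntaxins pair with vesicle SNAREs to drive fusion. Syntaxin 3 acts at the apical surface and syntaxin 4 at the basolateral surface, and the adaptor AP-1B sorts basolateral cargo. Loss of myosin Vb or of syntaxin 3 in the human intestine causes microvillus inclusion disease, in which apical cargo is misplaced.

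T84 cells, an established human line from a colorectal carcinoma whose monolayers polarise, were grown on 24 mm filters with pores of 0.4 µm, from 500000 cells per well. Every culture was transfected with 15 pmol of oligonucleotide, and no group was left untransfected. The labels do not give whether a whole mix or every miRNA in it came to that amount, so the miR-338-3p and miR-451 doses of the mixes may differ. The 4-miRNA culture received miR-33a, miR-210, miR-451 and miR-338-3p and was collected on day 5. The 2-miRNA culture received miR-338-3p and miR-451 and was collected on day 5. The day 7 control and the day 5 control received a short RNA with little similarity to human miRNAs, the negative control, and differed in the day of collection. Each group was 1 array, so nothing could be tested across samples and no p-value follows; the precision is limited by the number of arrays.

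The mature miRNAs are shown because they are what distinguishes the mixes from the controls, and miRNAs act on messengers mainly through the seed, bases 2 to 8 from the 5′ end, here in capitals. RefSeq (GRCh38.p14) sequences matched 3 of the 4 names. The labels give no arm for miR-33a and miR-210, and the arm that usually carries each name is printed. miR-210-3p lies at chr11:568112-568133 on the minus strand, miR-338-3p at chr17:81125887-81125908 on the minus strand and miR-33a-5p at chr22:41900949-41900969 on the plus strand.
miR-210-3p: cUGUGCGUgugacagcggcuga
miR-338-3p: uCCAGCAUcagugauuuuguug
miR-33a-5p: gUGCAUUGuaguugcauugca
The 3 seeds differ from one another, and miR-210-3p and miR-33a-5p were in the 4-miRNA mix alone. No search for seed matches in the 10 genes was made.

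The arrays were of the Affymetrix U133 Plus 2.0 design, on which a gene is read by 1 or more probe sets. The deposited signals were multiplied so that each array had a 2% trimmed mean of 500. As deposited, the arrays differed in brightness, with trimmed means of 150 and 147 with 4 and 2 miRNAs, against 74.3 and 76.6 in the day 7 and day 5 controls. Brightness and miRNA treatment therefore cannot be told apart. The highest deposited value was between 17832 and 18749 on all 4 arrays, so after scaling the brightest probe sets were lower on the miRNA arrays. All 10 markers of intestinal epithelium were expressed and at or above the array median on every array, with summed scaled signals between 150976 and 191120. Of the fibroblast, leukocyte and endothelium markers with a usable probe set, 2 of 6, 1 of 4 and 1 of 4 were expressed (COL1A1, COL1A2, CD79A and PECAM1). Their lists had sums of at most 635, 334 and 367 on any array. The leukocyte list named 6 genes, and those without a usable probe set could not be read. The ratio of 3′ to 5′ signal of the ACTB control probe sets, a sign of RNA integrity, was 1.97 and 2.28 on the 4-miRNA and 2-miRNA arrays, against 2.33 and 2.11 in the day 7 and day 5 controls.

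Differences are of log2(scaled signal + 32), the first array named minus the second, a scale that understates the changes of dim genes. The probe set of highest mean stood for a gene. The only error these data offer is how far probe sets of a gene disagree. Among 1735 genes with a pair of bright probe sets, the SD of 1 probe set's log2 difference about its gene was 0.57 for the 4-miRNA array over the day 5 control and 0.58 for the 2-miRNA array over it. It was 0.27 between the day 7 and day 5 controls and 0.19 between the 4-miRNA and 2-miRNA arrays. Variation between cultures, transfections and RNA preparations was not measured. Fewer cells of a kind and less RNA per cell cannot be told apart in such bulk RNA.

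By the probe set that stood for each gene, STX3, the apical syntaxin, was the member furthest from the day 5 control. It was lower with both miRNA mixes and, by less, on day 7. RAB11A probe set 200864_s_at, which did not stand for its gene, lay further away, at 2.92, 2.95 and 1.35 on those arrays. The brightest STX3 probe set, 209238_at, had scaled signals of 3022 on the 4-miRNA array, 3596 on the 2-miRNA array, 5378 in the day 7 control and 7683 in the day 5 control. Both miRNA arrays were below both controls, and the day 5 control was the highest. The log2 differences from the day 5 control were −1.34 with 4 miRNAs, −1.09 with 2 miRNAs and −0.51 for the day 7 control, or 2.33, 1.88 and 1.87 times the probe set SD. Against the day 7 control the differences were −0.82 with 4 miRNAs and −0.58 with 2, so the 2-fold distance was reached only against the day 5 control.

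The order of the arrays was the same for a second STX3 probe set. 216985_s_at had scaled signals of 640 and 711 on the 4-miRNA and 2-miRNA arrays, 929 in the day 7 control and 1198 in the day 5 control, with log2 differences from the day 5 control of −0.87, −0.73 and −0.36. The dimmest probe set, 235483_at, did not share it: its scaled signals were 211, 208, 212 and 167 on the arrays of 4 miRNAs, 2 miRNAs, the day 7 control and the day 5 control, and the day 5 control was the lowest. As deposited, 209238_at read 906 with 4 miRNAs and 1060 with 2 miRNAs, against 1177 in the day 5 control, while the median gene read 1.75 and 1.70 times its day 5 control signal. The other STX3 probe sets were higher on the miRNA arrays before scaling, 216985_s_at at 1.05 and 1.14 times and 235483_at at 2.48 and 2.40 times the day 5 control. By representative probe sets 1 of 10 members was lower as deposited with each mix, near the 9.56% and 9.83% of all genes.

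**Figure D1:**
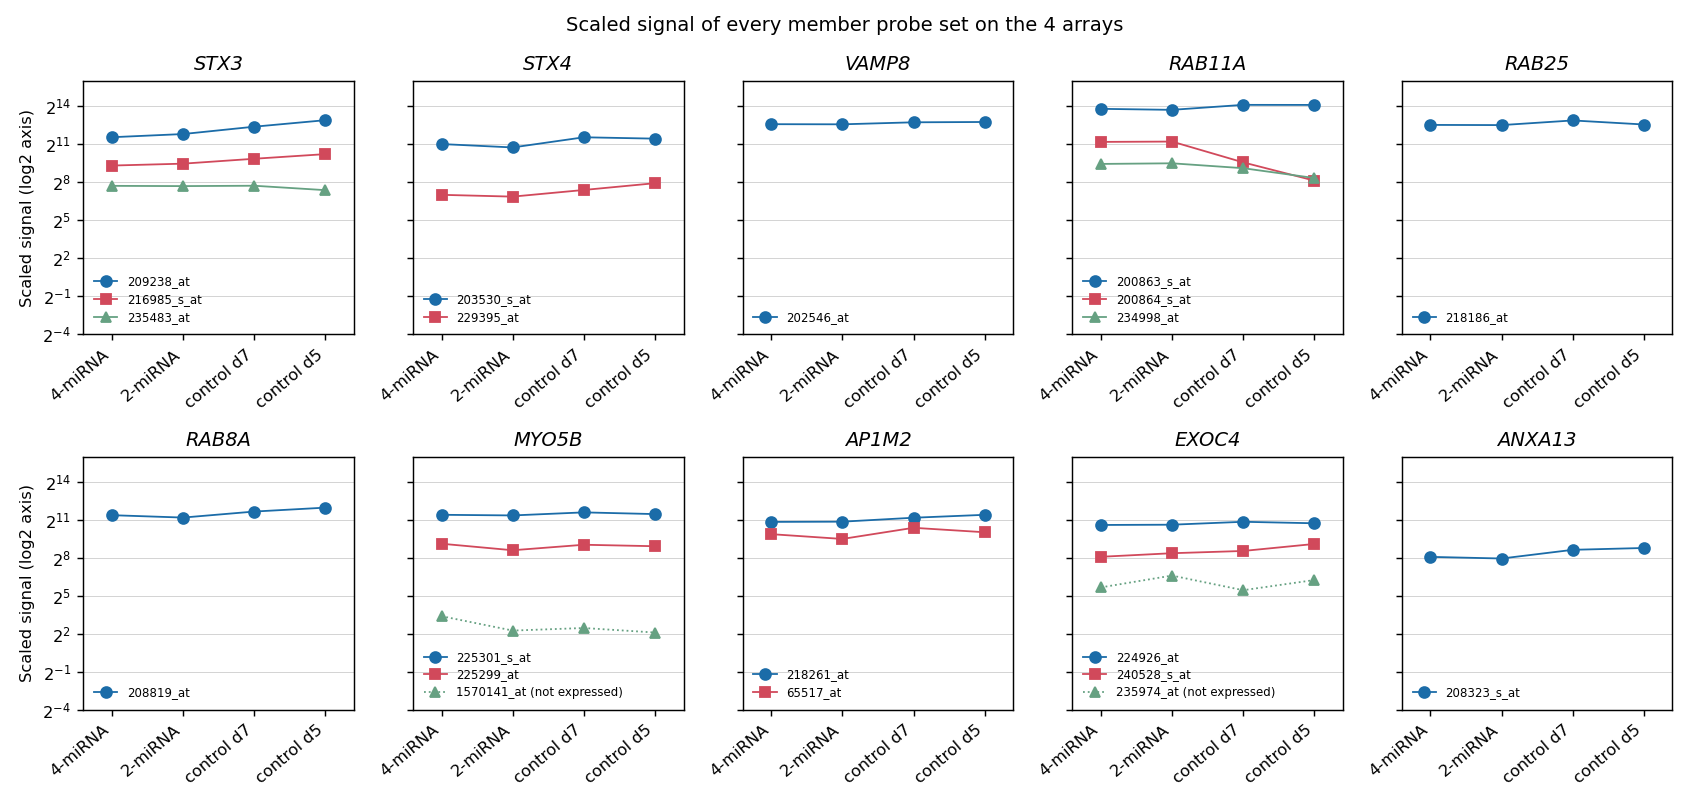
Scaled signal, on a log2 axis, of each of the 20 probe sets of the 10 genes on the arrays of 4 miRNAs, 2 miRNAs, the day 7 control and the day 5 control, with 1 point per array, lines joining the points of a probe set, and dotted lines for the 2 probe sets that did not pass the filter on low signal. STX3 209238_at runs from 3022 to 7683 across the arrays, while RAB11A 200864_s_at lies at 2339 and 2382 on the miRNA arrays and at 762 and 281 on the controls.

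STX4, the basolateral syntaxin, was lower with the miRNA mixes by less than 2-fold. Its probe set 203530_s_at had scaled signals of 2079 with 4 miRNAs and 1727 with 2 miRNAs, against 3013 in the day 7 control and 2795 in the day 5 control. Both miRNA arrays were below both controls, with log2 differences from the day 5 control of −0.42 and −0.68. The dim probe set 229395_at had 129 and 117 on the 4-miRNA and 2-miRNA arrays, against 168 and 244 in the day 7 and day 5 controls, and differed from the day 5 control by −0.78 and −0.89. For the day 7 control over the day 5 control the STX4 probe sets were on opposite sides of 0, at 0.11 and −0.46.

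VAMP8, an endosomal and secretory vesicle SNARE that serves exocytosis in epithelial glands, was nearly level. Its single probe set had scaled signals of 6170, 6126, 6840 and 6960 on the arrays of 4 miRNAs, 2 miRNAs, the day 7 control and the day 5 control. The log2 differences from the day 5 control were −0.17, −0.18 and −0.03, within the probe set SD in each comparison. Among the SNAREs of the list, then, the difference from the day 5 control was over 2-fold for STX3 alone, and this holds for its representative probe set.

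RAB11A, the Rab of the apical recycling endosome, gave opposite readings by probe set. The brightest, 200863_s_at, had scaled signals of 14301 and 13525 on the 4-miRNA and 2-miRNA arrays, against 17773 in the day 7 control and 17719 in the day 5 control, a log2 difference from the day 5 control of −0.31 with 4 miRNAs and −0.39 with 2. The second, 200864_s_at, had 2339 and 2382 on the miRNA arrays, 762 in the day 7 control and 281 in the day 5 control. That probe set was thus 2.92 and 2.95 higher on the log2 scale with 4 and 2 miRNAs than in the day 5 control, and 1.35 higher on day 7.

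The third RAB11A probe set, 234998_at, had the order of the second with smaller distances. Its scaled signals were 700 on the 4-miRNA array, 725 on the 2-miRNA array, 555 in the day 7 control and 324 in the day 5 control, and its log2 differences from the day 5 control were 1.04, 1.09 and 0.72. All 3 probe sets were above the median of every array. Between the highest and the lowest of them lay 3.23 log2 units with 4 miRNAs and 3.34 with 2, a distance reached by 40 and 30 of the 5896 genes with several expressed probe sets, whose medians were 0.75 and 0.77. Between the controls the distance was 1.34, reached by 620 genes, and between the miRNA arrays it was 0.13. Whether RAB11A messenger was higher or lower with miRNAs is therefore not settled by these arrays, and which transcripts each probe set reads was not tested.

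RAB25, a Rab11 relative found mainly in epithelia, was level between the miRNA arrays and the day 5 control and somewhat higher on day 7. Its single probe set had scaled signals of 5929 on the 4-miRNA array, 5872 on the 2-miRNA array, 7572 in the day 7 control and 6064 in the day 5 control. The day 7 control was the highest of the arrays, at 0.32 over the day 5 control on the log2 scale, 1.16 times the probe set SD. The miRNA arrays were at −0.03 and −0.05, or −0.35 and −0.36 when set against the day 7 control.

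RAB8A, which carries cargo from the Golgi and recycling endosomes to the plasma membrane and in mouse intestine is needed for apical delivery, was lower with the mixes. Scaled signals were 2670 and 2342 on the 4-miRNA and 2-miRNA arrays, against 3257 and 4037 in the day 7 and day 5 controls. As for STX3, both miRNA arrays were below both controls and the day 5 control was the highest. The log2 differences from the day 5 control were −0.59, −0.78 and −0.31 for the 4-miRNA, 2-miRNA and day 7 control arrays, each 1.03 to 1.35 times the probe set SD of its comparison.

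MYO5B, the motor that binds RAB11A and RAB8A carriers, was nearly level by its brightest probe set. 225301_s_at had scaled signals of 2727, 2634, 3113 and 2835 on the arrays of 4 miRNAs, 2 miRNAs, the day 7 control and the day 5 control, with log2 differences from the day 5 control of −0.06, −0.10 and 0.13. The other expressed one, 225299_at, had 560, 391, 529 and 488 and differed from the day 5 control by 0.19 with 4 miRNAs and −0.30 with 2. Its difference between the 4-miRNA and 2-miRNA arrays, 0.48, was the largest of the 18 expressed probe sets in that comparison and 2.58 times the probe set SD of that pair. Another probe set, 1570141_at, was under the median of every array, with scaled signals of 10.6, 4.8, 5.5 and 4.3.

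AP1M2, the µ1B subunit that makes the AP-1 adaptor into its epithelial form AP-1B, was lower with both mixes by its brighter probe set. 218261_at had scaled signals of 1848 and 1872 on the 4-miRNA and 2-miRNA arrays, against 2322 in the day 7 control and 2724 in the day 5 control, with log2 differences from the day 5 control of −0.55, −0.53 and −0.23. Both miRNA arrays were below both controls. The other probe set, 65517_at, had 945 and 727 on the miRNA arrays, against 1338 and 1049 in the day 7 and day 5 controls. By this second probe set the day 7 control was the highest array, and the differences from the day 5 control were −0.15, −0.51 and 0.34.

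EXOC4, the exocyst subunit Sec8, was nearly level by its brightest probe set. 224926_at had scaled signals of 1563, 1585, 1860 and 1715 on the arrays of 4 miRNAs, 2 miRNAs, the day 7 control and the day 5 control, within 0.13 log2 units of the day 5 control on every array. 240528_s_at had 273, 333, 376 and 552 in the same order, with log2 differences from the day 5 control of −0.94, −0.68 and −0.52. The third, 235974_at, had 51.2, 97.8, 43.9 and 76.6 and was under the array median on 3 of the 4 arrays.

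ANXA13, an annexin of intestinal epithelium whose dog form acts in apical transport carriers of kidney cells, was the dimmest member. Its single probe set had scaled signals of 272 with 4 miRNAs and 249 with 2 miRNAs, against 401 in the day 7 control and 443 in the day 5 control. Both miRNA arrays were below both controls, with log2 differences from the day 5 control of −0.64 and −0.76, 1.12 and 1.31 times the probe set SD. The day 7 control was within the probe set SD of its own comparison, at −0.13 from the day 5 control. Those SDs come from bright probe sets, with a mean log2 of at least 9, while that of ANXA13 was 8.51.

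**Figure D2:**
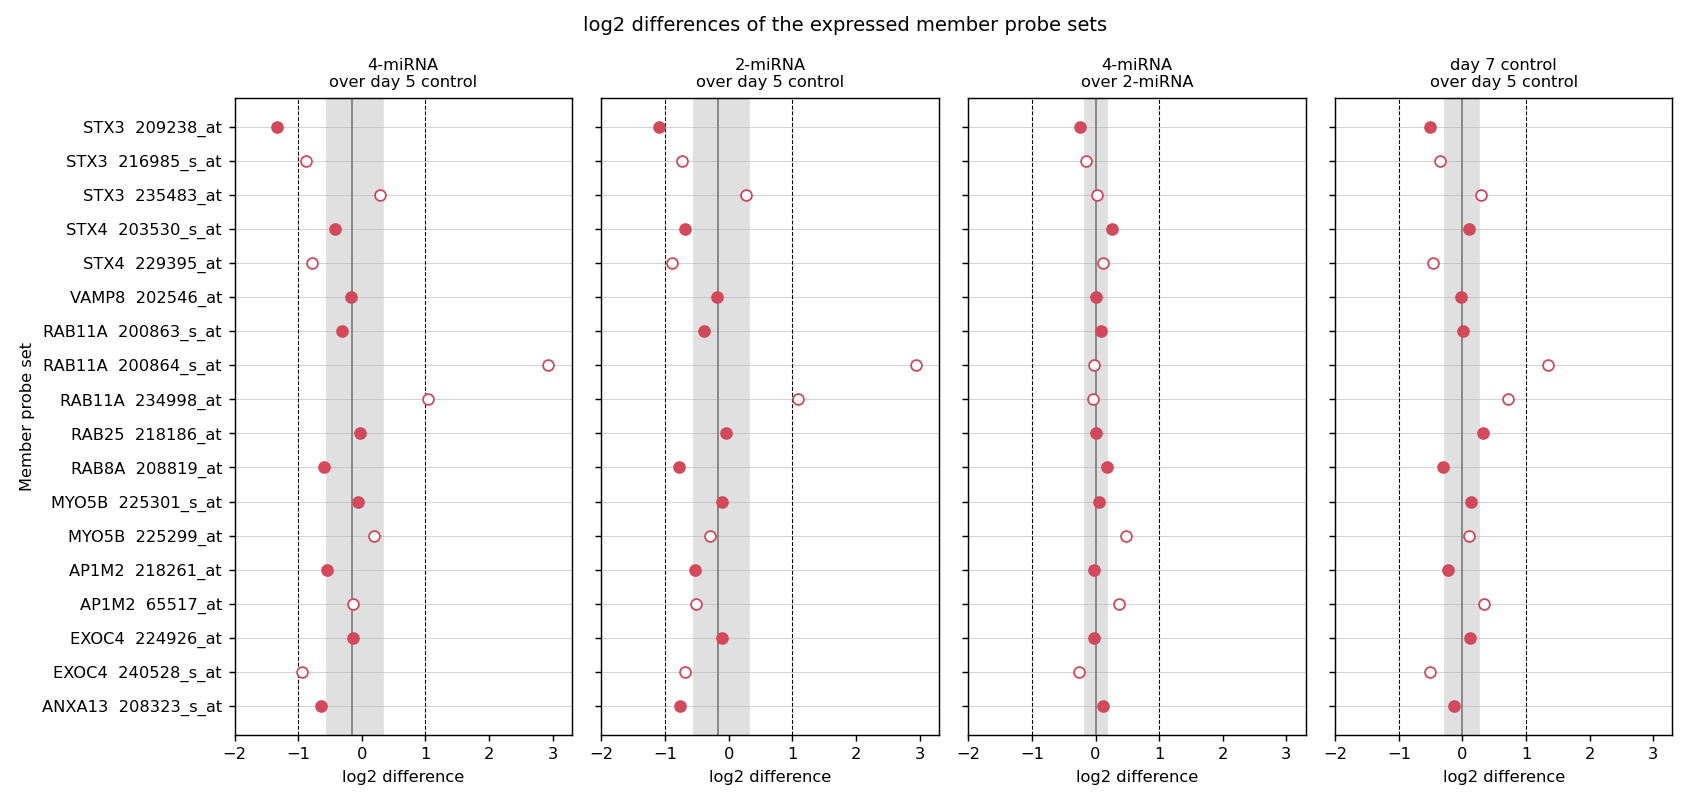
log2 difference of the 18 expressed probe sets (filled points for the probe set that stands for its gene, open points for the others) in each comparison, with the quartile range of all 12264 genes in grey, their median as a grey line and 2-fold as dashed lines. STX3 209238_at lies beyond 2-fold at −1.34 and −1.09, and RAB11A 200864_s_at at 2.92, 2.95 and 1.35.

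The 4-miRNA array over the day 5 control asks what the full mix went with. All 10 genes were below 0 on their representative probe sets, as were 59.0% of all genes, and 7 of the 10 were below the median gene. All 10 were below 0 after quantile normalization too, but 8 of 10 with a running median of genes of like level subtracted and 6 of 10 with arrays scaled to the same median. The median gene was at 0 with the running median subtracted and at 0.12 with arrays scaled to the same median. Below it were 8 and 7 of the 10 members. With the median over probe sets 8 of 10 were below 0, and 7 of 9 without _s_at and _x_at probe sets. The members had a median of −0.36 and a range of −1.34 to −0.03. VAMP8, RAB25, MYO5B and EXOC4 were the members above 0 with arrays scaled to the same median, at 0.11, 0.25, 0.22 and 0.15. The median over all 12264 genes was −0.15. STX3 was the 1 member at least 2-fold apart, where 14.7% of all genes were: 8.03% higher and 6.70% lower. That makes 985 higher and 822 lower, or 1240 and 489 after running-median centring and 1551 and 364 with arrays scaled to the same median. With 1 in 10 against that background, the members were not 2-fold apart more often than genes in general. By probe set, 2 of 18 were at least 2-fold higher, both of RAB11A, and 1 at least 2-fold lower, against 8.65% and 6.21% of all expressed probe sets.

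The 2-miRNA array over the day 5 control gave much the same values, but it shares that control and is no independent repeat. Again all 10 genes were below 0 (9 of 10 after running-median centring, and 6 of 10 with arrays scaled to the same median, which put the same 4 genes above 0), as were 59.4% of all genes, and 7 of the 10 were below the median gene. The median gene was at 0 after that centring and at 0.01 with arrays scaled to the same median. Below it were 9 and 7 of the 10 members. With the median over probe sets 9 of 10 were below 0, and 8 of 9 without _s_at and _x_at probe sets. The members had a median of −0.46 against −0.16 for all genes and a range of −1.09 to −0.05. STX3 was again the 1 member at least 2-fold apart, beside 14.5% of all genes, 8.11% higher and 6.37% lower. These were 995 and 781 genes, 1306 and 430 after running-median centring and 1341 and 425 with arrays scaled to the same median. By probe set 2 of 18, both of RAB11A, were 2-fold higher and 1 was 2-fold lower, against 9.24% and 5.89% of all expressed probe sets. Genes of the same signal level as STX3 had medians of −0.04 with 4 miRNAs and −0.08 with 2, far from its own −1.34 and −1.09. For RAB11A by 200863_s_at those medians were −0.15 and −0.13.

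**Figure D3:**
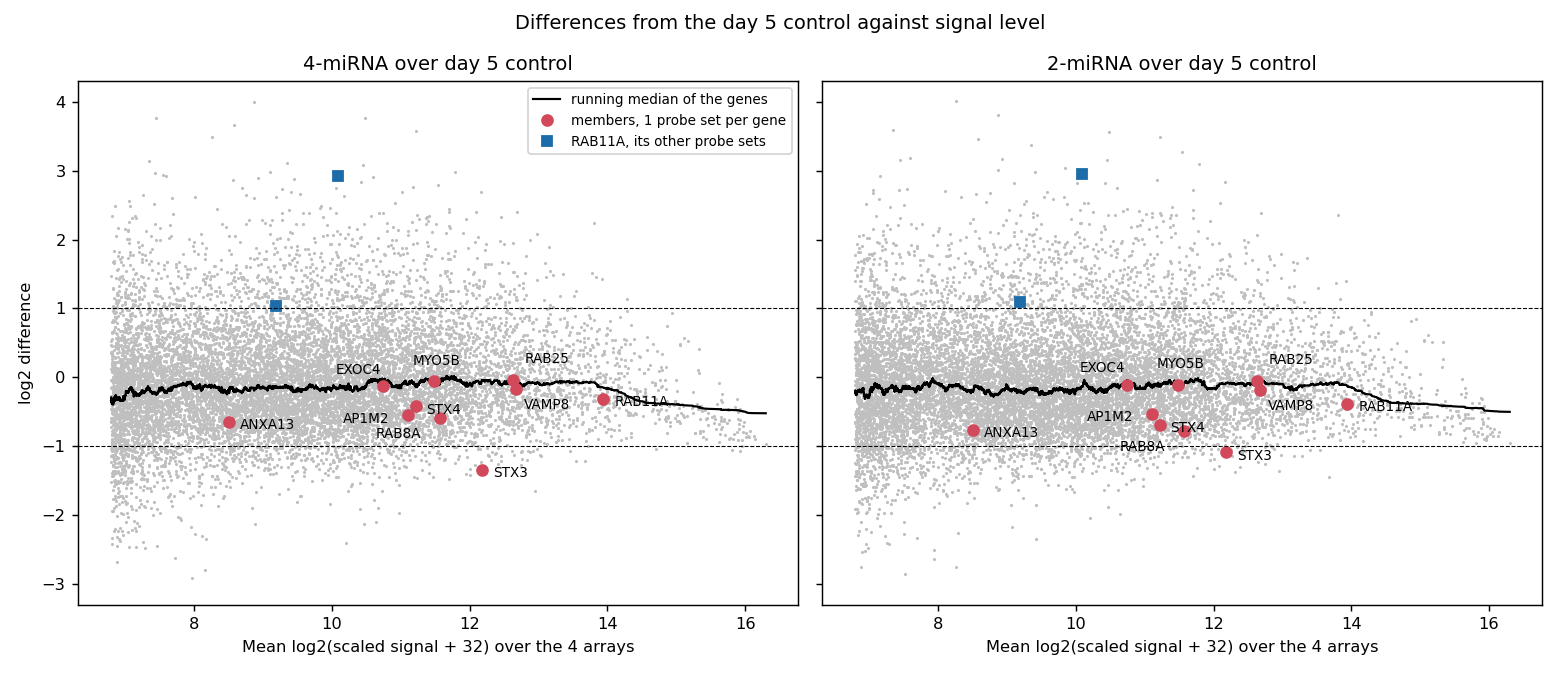
log2 difference from the day 5 control against mean log2(scaled signal + 32) over the 4 arrays, for the 4-miRNA array (left) and the 2-miRNA array (right), with all 12264 genes in grey, a running median over genes of like level in black, the 10 members in red and the other RAB11A probe sets as blue squares. STX3 lies below the running median by more than any other member, and the RAB11A squares lie above it at 2.92 and 1.04 (left) and at 2.95 and 1.09 (right).

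The 4-miRNA array over the 2-miRNA array asks what a mix that also holds miR-210 and miR-33a went with, at doses of the shared miRNAs that may not be equal. No member was at least 2-fold apart, beside 2.37% of all genes (1.04% higher and 1.33% lower), and 7 of the 10 were above 0 (9 with arrays scaled to the same median) with a median of 0.03. The median gene was at 0.10 with that scaling. On representative probe sets the range was from −0.25 for STX3 to 0.26 for STX4. Those values are 1.33 and 1.41 times the probe set SD of this pair. The other STX3 probe sets were at −0.14 and 0.02 and the other STX4 one at 0.11, all within that SD. Beyond the range lay MYO5B 225299_at at 0.48, AP1M2 65517_at at 0.36 and EXOC4 240528_s_at at −0.26. The other 8 members were within 0.19 on their representative probe sets.

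The day 7 control over the day 5 control asks what further time on the filter went with in cells given the control RNA. No member was at least 2-fold apart, beside 5.76% of all genes (3.35% higher and 2.41% lower). Of their 18 probe sets 1 was at least 2-fold higher, 200864_s_at of RAB11A at 1.35, beside 3.83% of all expressed probe sets. The members were 5 above 0 and 5 below, with a median of −0.01 and a range of −0.51 for STX3 to 0.32 for RAB25. RAB25 and STX3 thus had the ends of the range in opposite directions. RAB8A at −0.31 was the other member beyond the probe set SD of this pair, at 1.12 times it.

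Set against the day 7 control in place of the day 5 control, both miRNA arrays had all 10 genes below 0 on their representative probe sets. So were 60.9% and 61.1% of all genes with 4 and 2 miRNAs. Signs under other scalings are not given for this control. By probe set 15 and 16 of 18 were below 0, beside 58.2% and 57.2% of all expressed probe sets. RAB11A 200864_s_at and 234998_at were above 0 with both mixes. The medians of the members were −0.32 for 4 miRNAs and −0.38 for 2, against −0.15 and −0.16 for all genes. No member was at least 2-fold apart, beside 9.78% and 10.2% of all genes with 4 and 2 miRNAs, and the largest distances of representative probe sets were those of STX3 with 4 miRNAs (−0.82) and of STX4 with 2 miRNAs (−0.79). Of the 18 probe sets 1 was at least 2-fold higher with each mix, 200864_s_at of RAB11A at 1.58 and 1.60, beside 6.49% and 7.26% of all expressed probe sets. AP1M2 by 65517_at was at −0.85 with 2 miRNAs. By this control RAB25 was at −0.35 and −0.36, against −0.03 and −0.05 with the day 5 control.

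By the distance between log2 differences from the day 5 control over the other 3 arrays, the expressed genes nearest to STX3 were DDX56, PDCD2L and POP1, at root mean square distances of 0.016, 0.028 and 0.051. DDX56 had scaled signals of 860 and 1021 on the 4-miRNA and 2-miRNA arrays, 1533 in the day 7 control and 2232 in the day 5 control, the order of STX3. Over so few arrays a pattern is not rare: 341 of 12263 genes lay within 0.25 of STX3.

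The other genes of vesicle sorting came from 6 lists, of which the array held 115 genes and 114 were expressed. Their counts and medians are by representative probe sets, and other probe sets of genes not counted could lie past 2-fold. With 4 miRNAs 6 of them were 2-fold or more above the day 5 control and 5 were 2-fold or more below it, shares of 5.26% and 4.39%, against 8.03% and 6.70% of all genes. Their median was −0.15, that of all genes. With 2 miRNAs the counts were 6 and 5, again 5.26% and 4.39%, against 8.11% and 6.37% of all genes. Their median was −0.23, against −0.16 for all genes. On day 7 no gene was at least 2-fold higher and 1 was lower, against 3.35% and 2.41% of all genes, with a median of 0.03.

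The 24 expressed SNAREs and partners had medians of −0.22 with 4 miRNAs and −0.28 with 2. With arrays scaled to the same median they were 0.05 and −0.12, beside 0.12 and 0.01 for all genes. The largest difference was that of STXBP3 (Munc18c), the partner protein of syntaxin 4. Its single probe set had scaled signals of 2538 and 2859 on the 4-miRNA and 2-miRNA arrays, against 693 and 602 in the day 7 and day 5 controls, and log2 differences from the day 5 control of 2.02 and 2.19. So this partner was higher with miRNAs where STX4 itself was at −0.42 and −0.68. VAMP4, a SNARE of the trans-Golgi network, was 1.04 and 1.18 higher with 4 and 2 miRNAs, and STX17, the autophagosomal syntaxin, 1.02 higher with 4. STX2 with 4 miRNAs (−1.04) and NAPA, which helps to take SNARE complexes apart, with 2 (−1.13) were at least 2-fold lower. VAMP4, STX17 and NAPA each had another probe set within 0.20 of 0.

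The 27 Rab genes, effectors and activators had medians of 0.02 and 0.04 with 4 and 2 miRNAs, above those of all genes. With arrays scaled to the same median they were 0.29 and 0.21, beside 0.12 and 0.01 for all genes. RAB11FIP1, an effector that binds RAB11A and RAB25, was furthest from the day 5 control. Its brightest probe set had scaled signals of 4886 and 4760 on the 4-miRNA and 2-miRNA arrays, 1910 in the day 7 control and 1022 in the day 5 control, with log2 differences from the day 5 control of 2.22, 2.18 and 0.88. As for the RAB11A probe sets 200864_s_at and 234998_at, both miRNA arrays were above both controls and the day 5 control was the lowest. As with RAB11A the probe sets disagreed, the lowest being at 0.04 with 4 miRNAs and −0.44 with 2. SYTL2, a Rab27 effector, was 1.17 higher with 2 miRNAs, though another of its probe sets was at −0.02. RAB11FIP4 (−1.05) and EHD4 (−1.04), which acts in endosomal recycling, were lower with 2 miRNAs, though another EHD4 probe set was at −0.06, and RAB3IL1, an exchange factor for Rab proteins, with 4 (−1.25).

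The 12 expressed motors had medians of 0.10 and −0.08 with 4 and 2 miRNAs (0.36 and 0.10 with arrays scaled to the same median). Among them MYO1D, a class I myosin of the brush border, was higher with both mixes by its single probe set, at 1468 and 996 on the 4-miRNA and 2-miRNA arrays against 479 and 290 in the day 7 and day 5 controls. The log2 differences from the day 5 control were 2.22 and 1.67. Among the 23 clathrin adaptor and clathrin genes, 19 were below 0 with 4 miRNAs and 21 with 2, beside 59.0% and 59.4% of all genes, with medians of −0.37 and −0.36. With arrays scaled to the same median 15 and 17 were below 0, with medians of −0.09 and −0.18. The median of all genes with that scaling was 0.12 and 0.01 with 4 and 2 miRNAs. AP1M2, at −0.55 and −0.53, was below their medians. AP2M1, the µ subunit of the endocytic adaptor AP-2 (−1.07), and AP1S3, a small AP-1 subunit (−1.42), were at least 2-fold lower with 4 miRNAs, and ARF6, a GTPase of endocytic recycling, was 1.53 and 1.14 higher with 4 and 2 by its brightest probe set and −0.53 and −0.50 by its lowest.

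ARF1, the GTPase that recruits AP-1 to membranes, was at least 2.82-fold lower with 4 miRNAs and at least 2.33-fold lower on day 7 than in the day 5 control. This was by its 1 expressed probe set, which was dim (17.3 and 32.9 against 231). On the 2-miRNA array that probe set read 153, a log2 difference from the day 5 control of −0.51. The 11 exocyst genes and their GTPases had medians of −0.13 and 0.04 with 4 and 2 miRNAs, and the 17 genes of apical rafts, annexins and lectins −0.11 and −0.31. With arrays scaled to the same median these became 0.19 and 0.23 for the exocyst list and 0.17 and −0.14 for the rafts. The medians of all genes were then 0.12 and 0.01. By representative probe sets RHOQ alone of the exocyst list was 2-fold apart, at −1.11 with 2 miRNAs. Another of its probe sets was at 0.65. Other probe sets reached 1.88 and 1.97 for RALA with 4 and 2 miRNAs, 1.59 and 2.00 for EXOC5, and 1.03 and 0.88 for RALB. No other probe set of this list was 2-fold lower with a mix. By representative probe sets ANXA11 alone of the raft list was 2-fold apart, at −1.06 with 2 miRNAs. Another of its probe sets was at 0.91, and another ANXA4 probe set was at 1.12 with 4 miRNAs. Between the 4-miRNA and 2-miRNA arrays 0.88% of the wider lists were 2-fold or more higher and 2.63% lower, against 1.04% and 1.33% of all genes. VAMP2 was at least 2.04-fold higher, ARF1 at least 1.87-fold lower, and RAB3IL1 (−1.32) and AP1S3 (−1.13) were lower, though another AP1S3 probe set was at 0.13.

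**Figure D4:**
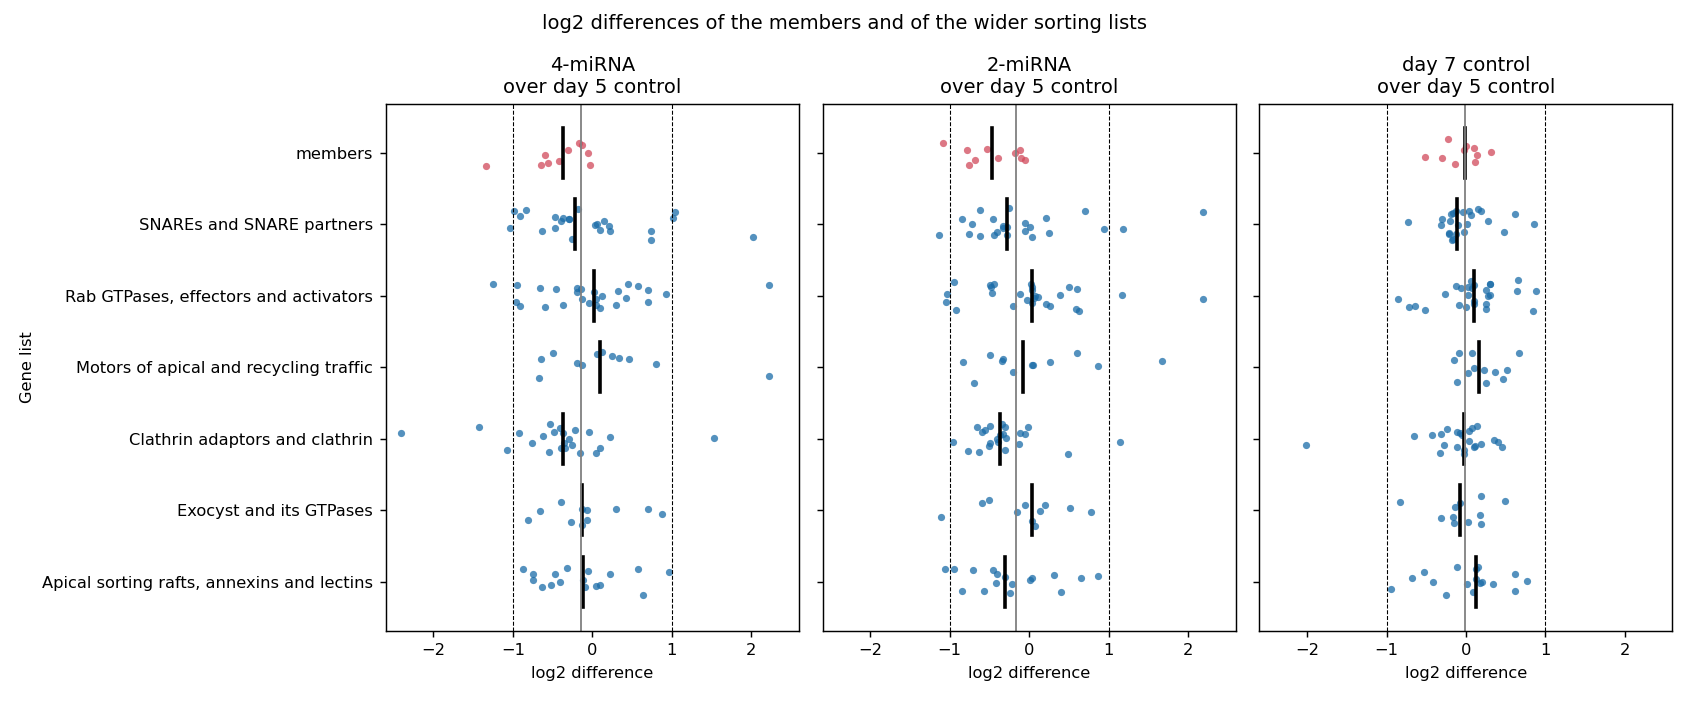
log2 difference from the day 5 control of the 10 members (red) and of the expressed genes of the 6 wider lists (blue), 1 point per gene, for the 4-miRNA, 2-miRNA and day 7 control arrays, with the list median as a black bar, the median of all genes as a grey line and 2-fold as dashed lines. The medians of the members are −0.36, −0.46 and −0.01, and those of the clathrin adaptor list lie at −0.37 and −0.36 on the miRNA arrays.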

How the data were processed

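Total RNA of 4 T84 cultures was hybridised to 1 array each. The authors computed the deposited signal intensity of each of 54675 probe sets by MAS5 (per the submitters' processing notes, with no version or target intensity in the sources used here). Here all signals of an array were multiplied to bring its 2% trimmed mean to 500, then 32 was added and log2 taken. A probe set was kept at or above the 50th percentile of mean log2, or at the 75th percentile of any array. The platform annotation gave 41097 probe sets 1 symbol, 1801 several (left out) and 11777 none here; 41043 matched RefSeq of GRCh38.p14, used for names. The probe set of highest mean stood for its gene. Of the wider lists, up to 6 genes at least 2-fold apart were named in each direction and comparison. The 10 genes, the lists and the marker genes were chosen with earlier results of these data known. Where 1 array of a pair was under its median, the fold is given as "at least", from the brighter signal and the dimmer array's median. The steps were also run on simulated arrays with large known differences put into bright genes. Those arrays had less noise than the probe set SDs here and no common highest signal. The run therefore does not show how well small differences or dim genes are read. Alternatives were quantile and median scaling, centring by a running median over genes of like level, pseudocounts of 16 and 64, other filters and other choices of probe set. Computations used Python 3.11.15, numpy 2.4.6 and pandas 2.3.3.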

Additional observations from a re-analysis of the deposited data

How the results depend on the processing

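No paired analysis was possible because each group had 1 array, and for the same reason no replicate could be left out. A member's value was taken to have moved when it changed by more than the probe set SD, and a list's median when it changed by more than that SD over the root of its number of genes. Of 384 recomputed member values 19 moved, 12 of them of RAB11A, the only member also recomputed by each of its other probe sets. That SD, 0.57 with 4 miRNAs and 0.58 with 2, was larger than many of the members' differences. A value could therefore change sign without counting as moved. Some settings, such as no filter on low signal, left the members' values with 4 miRNAs unchanged. The count is thus no measure of how stable the differences are. STX3 kept its sign in every setting run, but it was not recomputed by 235483_at, at 0.29 with 4 miRNAs and 0.27 with 2. RAB11A changed sign: with the median over probe sets it was at 1.04 with 4 miRNAs and 1.09 with 2. VAMP8, RAB25, MYO5B and EXOC4 changed sign with both mixes when arrays were scaled to the same median. STX3 ranged from −1.35 to −0.82 with 4 miRNAs and from −1.10 to −0.58 with 2. It was under 2-fold with the median over probe sets (−0.87 and −0.73), with the day 7 control, and with 2 miRNAs and arrays scaled to the same median (−0.90). Scaling to the same median raised the median of all genes by 0.26 with 4 miRNAs, 0.17 with 2 and 0.09 between the mixes; the members' medians became −0.084, −0.277 and 0.127, and those of the wider lists 0.120, −0.024 and 0.133. Relative to the median gene the members were then at −0.20, −0.29 and 0.03, against −0.22, −0.30 and 0.03 before. With running-median centring the wider lists were at −0.051 with 4 miRNAs and −0.055 with 2. With 2 miRNAs they were at −0.142 after quantile normalization and −0.155 with the median over probe sets. On day 7 they were at −0.020 with the median over probe sets and also without _s_at and _x_at probe sets. Leaving those probe sets out, which drops ANXA13, gave −0.173 for the members and −0.061 for the wider lists with 4 miRNAs, −0.120 for the wider lists with 2, and 2 members past 2-fold with each mix, since RAB11A was then read by 234998_at. The number past 2-fold with each mix was likewise 2 with RAB11A by 200864_s_at or by 234998_at and 0 against the day 7 control, alternatives chosen after seeing the data. It was 0 with 2 miRNAs and arrays scaled to the same median, and 1 between the controls with RAB11A by 200864_s_at.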

Other observations

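Close relatives of the members, chosen after their values were seen, did not always take the members' side. RAB11B, the broadly expressed relative of RAB11A, had scaled signals of 161 and 166 with 4 and 2 miRNAs, against 196 and 343 in the day 7 and day 5 controls. Its log2 differences from the day 5 control, −0.96, −0.92 and −0.72, have the sign opposite to those of the RAB11A probe sets 200864_s_at and 234998_at. With the mixes they share the sign of 200863_s_at, the probe set that stood for RAB11A, at −0.31 and −0.39. RAB8B was at 0.30 and 0.39 with 4 and 2 miRNAs, where RAB8A was at −0.59 and −0.78, but the lowest RAB8B probe set was at −0.56 and −0.54. AP1M1, the µ1A subunit of the widespread AP-1A adaptor, was at −0.54 and −0.55, close to AP1M2 at −0.55 and −0.53, while its other probe set was at 0.11 and −0.10. MYO5C, a class V myosin of secretory epithelia, was at −0.64 and −0.70, where MYO5B was at −0.06 and −0.10, and MYO5A, under the array median in the day 5 control, was at least 1.42-fold and 1.60-fold higher by one probe set and at −0.77 and −0.96 by another. VAMP3, a SNARE of recycling endosomes, was at 0.09 and −0.05 by its brightest probe set and up to 0.50 and 0.51 by another.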
